A study of Mus musculus with 4 samples.

Results

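Neuropilins, plexins and semaphorins form a signalling family by which cells steer, repel and hold one another. Described here are 10 of its genes: the co-receptors Nrp1 and Nrp2, the plexin receptors Plxna1, Plxnb2, Plxnc1 and Plxnd1, and the semaphorin ligands Sema4a, Sema4b, Sema4d and Sema7a. They were found by symbol and are 10 of 23284 gene rows. Another 21 semaphorin and plexin genes have a row and serve as their comparison. The 10 members were selected on their CPM in these same 4 libraries, with the contrast of the groups already known, so their values are a description and carry no p-value.

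RNA was sequenced from C57BL/6 leukemic cells that carry much c-Kit, the stem cell factor receptor, in a leukemia driven by MLL. The groups were 2 mice labelled Msi2 -/- and 2 mice labelled Msi2 flox/flox, whose loxP-flanked alleles are intact and which are called controls here. Each library is 1 mouse per the labels. The sources used here do not give the Cre driver, the MLL fusion, the age of the mice or the way the leukemia was started.

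Semaphorins are secreted or membrane-bound proteins that bind plexins through a shared sema domain. The cytoplasmic part of a plexin acts on small GTPases and so changes adhesion and the actin skeleton. Secreted semaphorins of the Sema3 genes mostly need a neuropilin beside the plexin, and neuropilins also bind vascular endothelial growth factors. Membrane-bound semaphorins such as those of the Sema4 genes bind plexins directly and are known from immune cells, where they act between lymphocytes, dendritic cells and myeloid cells.

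Gene counts ranged from 72273679 to 87564774 per library, and 3 counts correspond to 0.0343 to 0.0412 CPM. CPM are the counts of a gene scaled by library size with TMM factors. Counts of Msi2 were 2804 and 3562 in control mice, against 8 and 17 in mice lacking it. The defining genes of immature myeloid leukemia cells were present in every library, with Kit at 50.4 to 68.1 CPM and Hoxa9 at 127 to 162 CPM. Not all of them were as even. Mpo stood at 4001 and 4952 CPM in control mice, against 2116 and 2159 CPM in mice lacking Msi2. Cd34 stood at 20.3 and 43.4 CPM in controls 1 and 2 and at 79.8 and 7.02 CPM in Msi2 -/- replicates 1 and 2. Xist stood at 1454 and 654 CPM in control mice, against 0.469 and 0.624 CPM in mice lacking Msi2. The sum over 4 genes of the Y chromosome (Uty, Kdm5d, Eif2s3y and Ddx3y) was 41.1 and 184 CPM in controls 1 and 2 and 224 and 241 CPM in the Msi2 -/- mice. Both control libraries thus held Xist and Y-linked transcripts together, in unequal amounts, and such differences and genotype cannot be told apart. That each library is 1 mouse rests on the labels, and whether cells of more than 1 animal entered a control library was not tested. By edgeR's quasi-likelihood test 1 of 13215 tested genes passed an adjusted p of 0.05, or 0.00757%. It was Ikzf2, the gene of the transcription factor Helios, which fell and is named here after its values were seen. Msi2 itself did not pass (edgeR adjusted p = 0.122). DESeq2 called 776 of 13350 genes, or 5.81%.

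To show the DNA in front of the genes whose levels set the libraries apart, the 250 bases before the annotated start are given for 4 of them, from RefSeq on build GRCm38.p6 and in the direction of transcription. The count files rest on build mm9, so these positions belong to the reference and not to the files. Nrp1 lies on chr8:128358823-128359072 (plus strand), Nrp2 on chr1:62703067-62703316 (plus), Plxnb2 on chr15:89180789-89181038 (minus) and Plxnd1 on chr6:115995006-115995255 (minus). Another RefSeq promoter of Plxnb2, on chr15:89173952-89174201, is not shown. Capitals mark matches to any of 5 motifs on either strand.
Nrp1: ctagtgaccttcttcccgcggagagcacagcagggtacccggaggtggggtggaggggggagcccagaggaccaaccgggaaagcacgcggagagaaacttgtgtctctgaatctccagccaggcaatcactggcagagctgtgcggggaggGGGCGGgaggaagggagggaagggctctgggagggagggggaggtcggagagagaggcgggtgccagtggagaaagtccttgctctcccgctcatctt
Nrp2: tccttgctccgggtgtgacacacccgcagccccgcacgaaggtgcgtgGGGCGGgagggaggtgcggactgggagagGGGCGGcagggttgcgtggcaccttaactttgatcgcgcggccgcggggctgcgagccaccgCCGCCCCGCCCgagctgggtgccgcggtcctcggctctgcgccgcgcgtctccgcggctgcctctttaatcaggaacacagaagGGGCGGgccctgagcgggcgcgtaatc
Plxnb2: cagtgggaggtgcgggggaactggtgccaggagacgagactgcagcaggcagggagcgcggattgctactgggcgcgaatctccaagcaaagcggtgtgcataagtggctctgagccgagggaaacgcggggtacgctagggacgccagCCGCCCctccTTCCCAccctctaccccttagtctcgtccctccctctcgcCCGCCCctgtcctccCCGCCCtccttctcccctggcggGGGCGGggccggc
Plxnd1: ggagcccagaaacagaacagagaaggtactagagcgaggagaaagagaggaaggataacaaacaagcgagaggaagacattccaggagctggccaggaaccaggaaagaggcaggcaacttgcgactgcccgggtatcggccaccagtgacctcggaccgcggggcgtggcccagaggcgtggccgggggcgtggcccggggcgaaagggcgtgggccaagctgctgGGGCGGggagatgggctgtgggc

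The motifs were GGGCGG (the GC box bound by SP factors), TGGGAA (the core bound by Ikaros factors), GAGGAAGT (a PU.1 site), TTGCNNAA (a C/EBP site) and CACGTG (the E-box bound by MYC and MAX). The RefSeq table held 16 promoters for 9 of the 10 genes, with none for Plxna1, and some promoters of Sema4a overlap each other. A GC box was in 13 of the 16, against 32.7% of all 32851 promoters of the table, and the Nrp2 promoter had 5, of which the adjoining pair on the minus strand share a base. Nrp1 and Plxnd1 had 1 GC box each in the stretch shown and Plxnb2 had 4. The Ikaros core was in 4 of 16 (21.6% of all promoters), the C/EBP site in 1 (9.56%), the E-box in 1 (6.02%) and the PU.1 site in 0 (2.44%). GC content was 72.4% in the Nrp2 stretch and 52.0% in the lowest of the 3 promoters of Sema4d, beside a median of 52.4% over all promoters. The shares over all promoters were not matched for GC content, and some genes gave several of the 16. For 11 of the 16 the 50 bases after the start lay in a GENCODE transcript. A match is a string of letters and was not tested as a binding site.

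**Figure D1:**
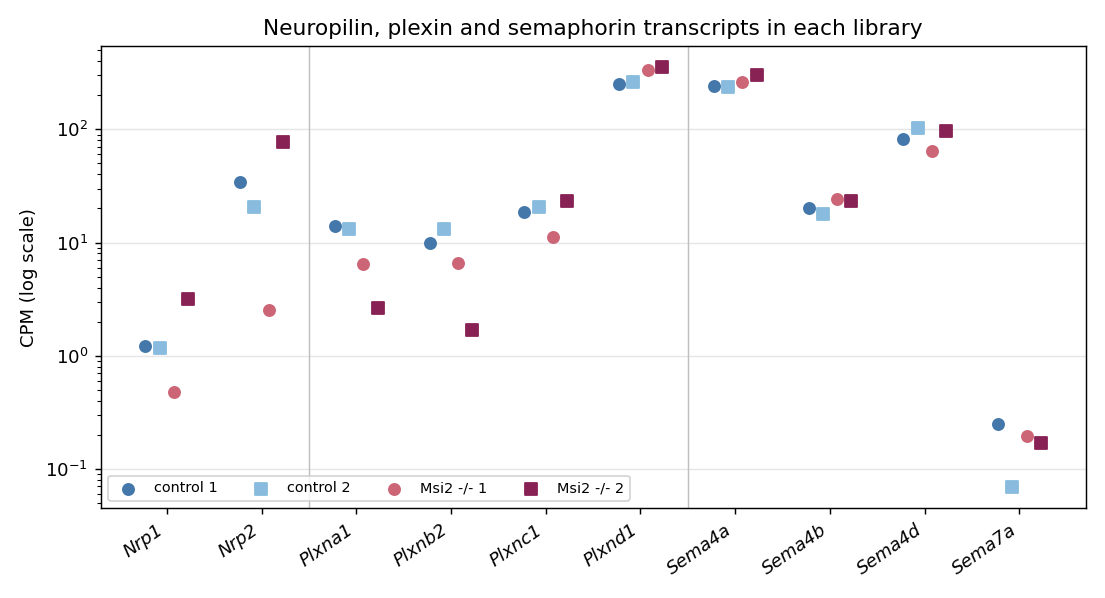
CPM on a log axis of each of the 10 genes in each of the 4 libraries, 1 point per library; grey lines separate co-receptors, plexins and semaphorins. Nrp1 and Nrp2 have their lowest and highest point in the 2 Msi2 -/- libraries, Plxna1 and Plxnb2 lie below both controls in both, and Plxnd1 and Sema4a lie close together in all 4.

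Of the 10 genes the neuropilins differed most between the 2 Msi2 -/- mice. Nrp2, a co-receptor that pairs with A-type plexins for secreted semaphorins and with receptors of lymphatic growth factors, stood at 34.3 and 20.6 CPM in controls 1 and 2, at 2.52 CPM in Msi2 -/- replicate 1 and at 77.3 CPM in replicate 2. The 2 Msi2 -/- mice thus held both the lowest and the highest level, and the controls lay between them. On the log2 scale the Msi2 -/- mice were 4.94 apart for Nrp2, and 57 of 13215 tested genes, or 0.431%, were at least as far apart between these 2 mice. Control 2 minus control 1 was -0.73 on the same scale.

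Nrp1, the co-receptor of Sema3a and of vascular endothelial growth factor A, showed the same order of the Msi2 -/- mice at a far lower level per kilobase. It stood at 1.22 and 1.18 CPM in the controls, at 0.480 CPM in Msi2 -/- replicate 1 and at 3.20 CPM in replicate 2. These are 99, 86, 42 and 246 counts, and the exact 95% Poisson intervals of the Msi2 -/- counts, 30.3 to 56.8 and 216 to 279, do not touch. Counting error alone is covered by these intervals. The Msi2 -/- mice were 6.65-fold apart for Nrp1, and 2.47% of tested genes were at least as far apart.

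A mean over the Msi2 -/- mice does not describe either neuropilin. On the log2 scale the fold change of Msi2 -/- against control was 0.54 (SE 1.44) for Nrp2 and 0.61 (SE 0.923) for Nrp1. Without Msi2 -/- replicate 2 these became -3.45 and -1.32, and without replicate 1 they became 1.5 and 1.42. By limma-voom, which averages log values, Nrp2 was at -1.09. The direction of both therefore rests on which Msi2 -/- mouse is kept.

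**Figure D2:**
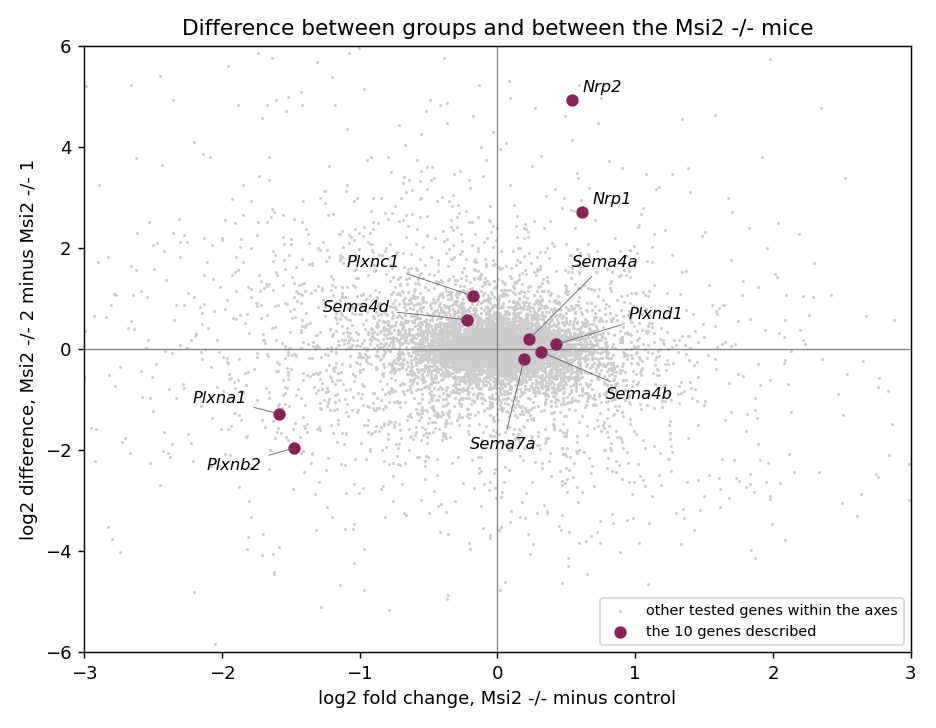
Each point is a tested gene, with the log2 fold change of Msi2 -/- against control on the x axis and the log2 difference between the 2 Msi2 -/- mice on the y axis; grey points are other genes within the axes. Nrp2 lies at 4.94 and Nrp1 at 2.72 on the y axis, while Plxnd1, Sema4a, Sema4b and Sema7a lie within 0.20 of the horizontal line.

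The summed markers of monocytes, through Ccr2 and Emr1, had the same lowest and highest library as the neuropilins. The 7 monocyte and macrophage markers summed to 169 and 257 CPM in the controls, 52.6 CPM in Msi2 -/- replicate 1 and 396 CPM in replicate 2. Most of this was Ccr2, a chemokine receptor gene of inflammatory monocytes, at 130, 198, 20.0 and 312 CPM in that order. Emr1, a macrophage surface gene, had the same lowest and highest library at 19.9 and 64.7 CPM. Csf1r, the receptor gene for a macrophage growth factor, stood at 4.32, 6.39, 10.5 and 13.96 CPM, and Cx3cr1 and Ly86 were highest in a control. C1qa, a gene of mature macrophages, had 0 counts in 3 libraries and 1 count in Msi2 -/- replicate 2. The part of monocytic cells in the neuropilin difference was not tested, and in RNA from a sorted population fewer cells of a type and less RNA per cell cannot be told apart.

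The 8 genes used as endothelial markers summed to 64.6 and 76.3 CPM in control mice, 27.8 CPM in Msi2 -/- replicate 1 and 175 CPM in replicate 2. Pecam1, an adhesion molecule gene of endothelium and of many leukocytes, stood at 58.8, 72.8, 24.6 and 166 CPM. Of the endothelial genes on the list, Cdh5, Tek, Kdr and Emcn had at most 10 counts in any library. Tie1, another of them, had 152 and 57 counts in controls 1 and 2. It had 72 counts in Msi2 -/- replicate 1 and 231 in replicate 2, its highest library. Vwf, a gene of endothelium and platelets, stood at 3.65, 2.55, 2.13 and 6.23 CPM. Flt1, which encodes a receptor of vascular endothelial growth factor, stood at 21.8 and 14.1 CPM in the controls, at 5.55 CPM in Msi2 -/- replicate 1 and at 24.6 CPM in replicate 2. The part of endothelial cells was not tested. For Flt1 as for Nrp1 and Nrp2 the lowest and the highest library were Msi2 -/- replicates 1 and 2. How many of all tested genes had this order was not counted, so it links no genes to each other. Hoxa10 had it too, at 81.7 and 146 CPM in Msi2 -/- replicates 1 and 2, while Cd34 had the reverse. Late neutrophil markers (8 genes) summed to 1021 and 658 CPM in the controls and to 1395 and 2221 CPM in the Msi2 -/- mice. Of these, S100a8, S100a9, Ltf and Lcn2 were higher in both Msi2 -/- mice, while Camp and Ngp overlapped between the groups. Mmp9 and Cxcr2 were lower in both, with Cxcr2 at 6.59 and 9.40 CPM in the controls, against 1.58 and 3.57 CPM. The part of late neutrophil markers in any result was not tested.

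The lists of other cell types were carried by few of their genes. The 7 matched T cell markers summed to 6.97 to 10.4 CPM, nearly all of it Lck, with Cd3e, Cd3g and Cd8a at 0 counts in every library. Of 6 B cell markers Ms4a1, Ebf1 and Pax5 were at 0 in all libraries and Cd79b gave 18.5 to 26.3 CPM. The 8 dendritic cell markers summed to 160 to 305 CPM, carried by Tcf4 and Bst2, with Siglech and Cd209a at 0 counts throughout. The sums over 6 markers each were 1.34 to 1.85 CPM for natural killer cells, at most 1.65 CPM for erythroid cells, 2.78 to 6.01 CPM for megakaryocytes and platelets, 23.4 to 32.4 CPM for mast cells and basophils and 4.51 to 13.3 CPM for stroma.

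**Figure D3:**
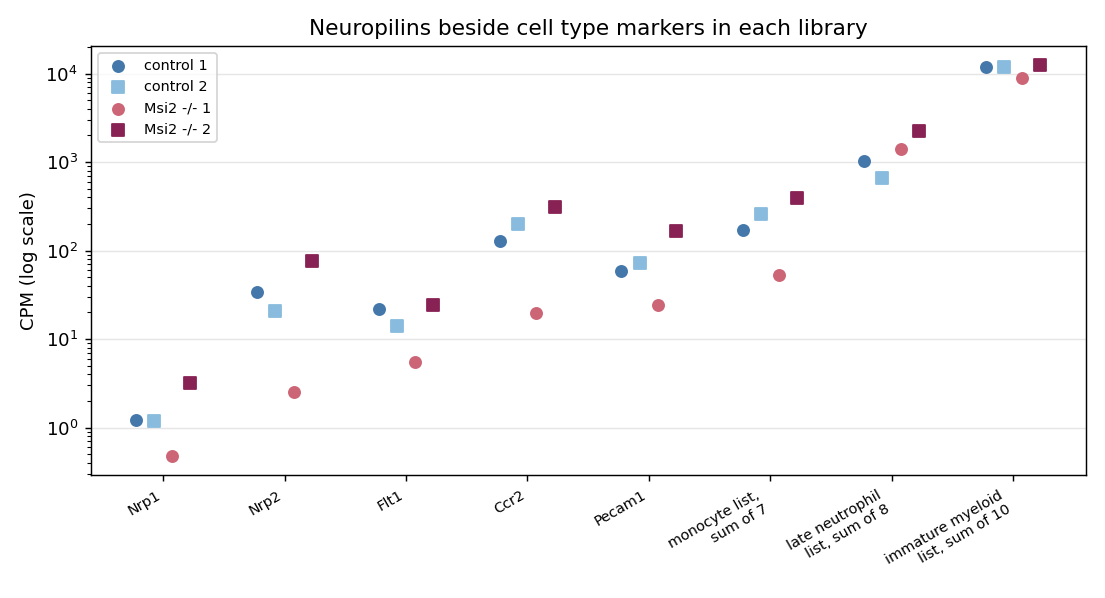
CPM on a log axis of Nrp1, Nrp2, Flt1, Ccr2 and Pecam1 and the summed CPM of 3 marker lists, 1 point per library. For Nrp1, Nrp2, Flt1, Ccr2, Pecam1 and the monocyte list Msi2 -/- replicate 1 is lowest and replicate 2 highest. Flt1, Ccr2 and Pecam1 were picked for their values, and Csf1r, Cx3cr1 and Ly86 of the monocyte list do not have this order. The immature myeloid list has the same lowest and highest library and spans 8967 to 12370 CPM, most of it Elane, Mpo and Prtn3.

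Plxna1 and Plxnb2 stood lower in both Msi2 -/- mice than in both controls. Plxna1, which encodes a plexin that joins neuropilins as the signalling receptor of secreted semaphorins, was at 13.9 and 13.2 CPM in control mice, against 6.40 and 2.63 CPM in Msi2 -/- replicates 1 and 2. The controls were close to each other and the Msi2 -/- mice 2.44-fold apart. This gave a log2 fold change of -1.59 (SE 0.469, n = 2 mice each). Without Msi2 -/- replicate 1 it was -2.36 and without replicate 2 it was -1.08, so its size depends on the mouse and its direction does not. An antisense transcript overlaps 970 exonic bases of Plxna1, and reads from it cannot be told apart where counting ignores strand.

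Plxnb2, whose protein is a receptor for Sema4c and Sema4d, stood at 9.88 and 13.1 CPM in control mice, against 6.54 and 1.68 CPM in mice lacking Msi2. The groups did not overlap, and replicate 2 was again the lower of the Msi2 -/- mice. For Plxnb2 the log2 fold change was -1.48 (SE 0.692), with -2.77 without replicate 1 and -0.81 without replicate 2. Of all tested genes 5.48% had a log2 fold change under -1. The plexins Plxna1 and Plxnb2 were thus lowest in the library in which the neuropilins were highest.

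Plxna1 had the largest log2 fold change in size of the 10 genes by edgeR with all 4 libraries, but Plxnb2 exceeded it by limma-voom (-1.73 against -1.70) and without control 1 (-1.67 against -1.55) or Msi2 -/- replicate 1, and Nrp2 without Msi2 -/- replicate 2. The 3 genes whose 4 library values lay closest to those of Plxna1 were Tom1l1, G0s2 and Mir17hg, among 9140 genes whose log2 CPM averaged 3 or more. Likeness was the root mean square distance between log2 CPM profiles centred on their mean, and was 0.18, 0.20 and 0.23. Tom1l1, an adaptor protein gene, stood at 13.7, 17.8, 7.60 and 3.47 CPM in controls 1 and 2 and Msi2 -/- replicates 1 and 2. G0s2, which encodes an inhibitor of a lipase, stood at 17.3, 18.1, 7.64 and 4.54 CPM in that order. Mir17hg, the host transcript of a microRNA cluster, stood at 92.5, 104, 34.4 and 20.9 CPM. With 4 libraries such likeness is a description only.

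Plxnd1 was the predominant plexin and stood higher in both Msi2 -/- mice. Plxnd1 encodes a receptor that binds Sema3e without a neuropilin and also binds Sema4a. It stood at 251 and 261 CPM in control mice, against 333 and 356 CPM in mice lacking Msi2, or 256 ± 7.27 against 345 ± 16.3 CPM (SD, n = 2 each). The gap between the groups was larger than the gap within either. Its log2 fold change was 0.43 (SE 0.0719), or 1.35-fold, and ran from 0.38 to 0.48 whichever library was left out. Per kilobase of exon, Plxnd1 made up 83.9% and 84.3% of the transcripts of all 9 plexin genes in the controls and 91.0% and 91.9% in the Msi2 -/- mice.

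Plxnc1, whose protein binds Sema7a, showed overlapping groups. It stood at 18.7 and 20.7 CPM in the controls, at 11.3 CPM in Msi2 -/- replicate 1 and at 23.4 CPM in replicate 2. As for the neuropilins, the Msi2 -/- mice were the lowest and the highest library. The log2 fold change was -0.18 (SE 0.378), with -0.80 without replicate 2 and 0.26 without replicate 1.

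Sema4a, a ligand of Plxnd1 and of B-type plexins that is known from dendritic cells and T cell priming, was the most abundant of the 10 genes per kilobase. It stood at 244 and 237 CPM in control mice, against 263 and 299.9 CPM in mice lacking Msi2. The groups did not overlap, yet the lower Msi2 -/- mouse lay nearer to the controls than to its fellow. Its log2 fold change was 0.23 (SE 0.0902), or 1.17-fold, and ran from 0.13 without Msi2 -/- replicate 2 to 0.33 without replicate 1.

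Sema4b, a membrane-bound semaphorin, stood at 20.2 and 17.8 CPM in control mice, against 24.2 and 23.2 CPM in mice lacking Msi2. The groups were apart, with a log2 fold change of 0.32 (SE 0.126), and 0.23 to 0.41 with a library left out. Sema4d, the ligand of B-type plexins that is also shed from lymphocytes, stood at 83.0 and 104 CPM in control mice, against 64.3 and 96.2 CPM in mice lacking Msi2. Its groups overlapped at a log2 fold change of -0.22 (SE 0.234), which went from -0.54 without Msi2 -/- replicate 2 to 0.05 without replicate 1.

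Sema7a, a ligand held to the membrane by a lipid anchor, was barely present. Its counts were 20 and 5 in control mice, against 17 and 13 in mice lacking Msi2, or 0.247, 0.0686, 0.194 and 0.169 CPM. The exact 95% Poisson interval of the 5 counts was 1.62 to 11.7 counts and that of the 20 counts 12.2 to 30.9. These intervals do not touch, so the controls differed by more than counting error. At such counts and with this spread no difference between the groups can be read. On the log2 scale Sema7a was 0.19 (SE 0.754) apart between the groups, -0.43 without control 2 and 1.39 without control 1.

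Transcripts of the receptor and ligand pairs were thus very unequal in these cells. Per kilobase of exon, Sema4a and its receptor Plxnd1 led in the controls at 44.4 ± 0.972 and 35.1 ± 0.996 CPM per kilobase (SD, n = 2), which in control 1 was above 90.4% and 86.9% of the 12992 tested genes with an exon length. Sema4d followed at 12.2 ± 1.90, then Sema4b at 3.37 ± 0.290, Plxnc1 at 2.36 ± 0.172 and Nrp2 at 2.32 ± 0.814 CPM per kilobase. Plxna1 stood at 1.5 ± 0.0508 and Plxnb2 at 1.49 ± 0.294, and Nrp1 (0.123 ± 0.00298) and Sema7a (0.0478 ± 0.0382) were last. In the controls neighbours in this order overlapped only for Plxnc1 with Nrp2 and for Plxna1 with Plxnb2.

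In the Msi2 -/- mice the order by mean was Sema4a, Plxnd1, Sema4d, Sema4b, Nrp2, Plxnc1, Plxnb2, Plxna1, Nrp1 and Sema7a. Sema4a and Plxnd1 stood at 52.0 ± 4.85 and 47.2 ± 2.23 CPM per kilobase (SD, n = 2), and their libraries overlapped. Nrp2 overlapped with Sema4b and with Plxnc1, as its libraries ran from 0.213 to 6.53 CPM per kilobase. Plxnb2 with Plxna1, Plxna1 with Nrp1, and Nrp1 with Sema7a overlapped too. Summed per kilobase, the 2 neuropilins stood at 3.02 and 1.86 in the controls and at 0.262 and 6.85 in the Msi2 -/- mice, the 9 plexins at 41.0, 42.5, 50.2 and 53.1, and the 20 semaphorins at 74.0, 70.4, 76.6 and 86.8. Sema4a made up 61.0% to 63.9% of the semaphorin transcripts in the 4 libraries.

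**Figure D4:**
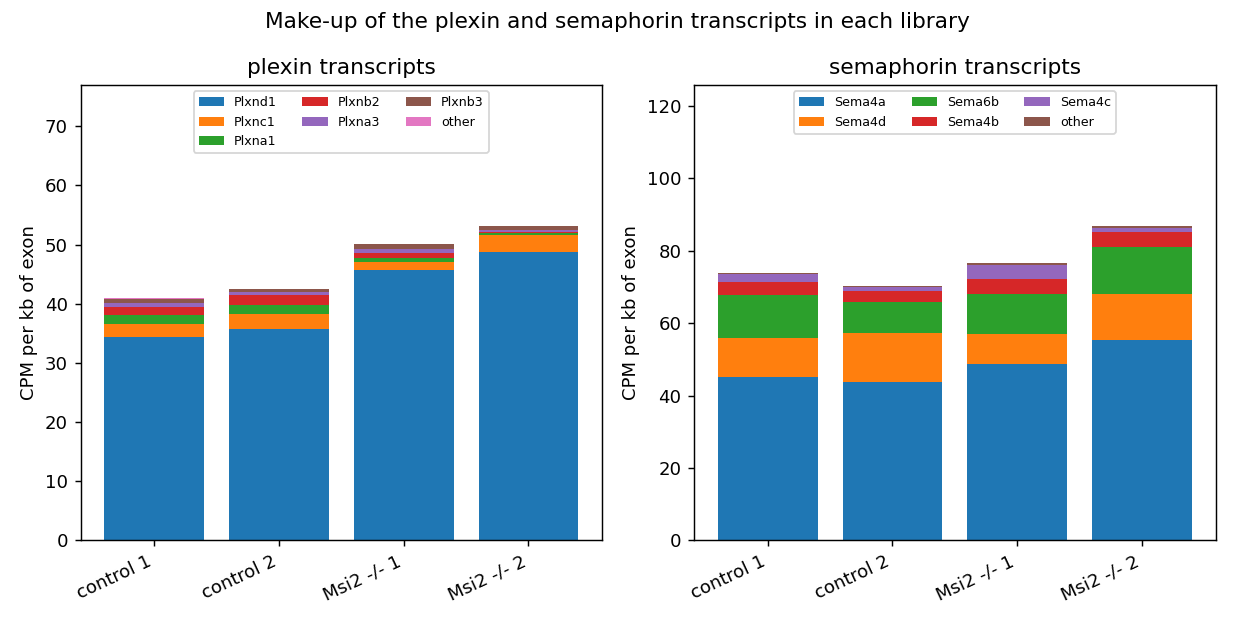
Stacked bars of CPM per kilobase of exon for the plexin genes and for the semaphorin genes in each library, with the less abundant genes pooled as other. Plxnd1 makes up 83.9% to 91.9% of the plexin bars and Sema4a 61.0% to 63.9% of the semaphorin bars.

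All 10 genes passed the filter on low counts, with 6 log2 fold changes over 0 (49.7% of the 13215 tested genes) and 4 under it (50.3%). Their median was 0.21, beside -0.00 for all tested genes. Msi2 -/- lay above the controls without overlap for 3 genes (Plxnd1, Sema4a and Sema4b) and below for 2 (Plxna1 and Plxnb2), where 23.7% and 24.6% of tested genes did so (48.3% in all). Relative to the mean of the control mice, the median log2 level of the 10 genes was -0.66 in Msi2 -/- replicate 1 and 0.31 in replicate 2, and the median fold change was -0.67 without Msi2 -/- replicate 2. Since the list was drawn up with these results known, nothing is read from those counts.

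The other semaphorin and plexin genes gave no call. Of the 21, 9 passed the filter, and 5 of these lay above 0 and 4 below on the log2 scale (median 0.25). EdgeR called 0 at an adjusted p of 0.05, with 0 past an unadjusted p of 0.05. DESeq2 also called 0. The groups overlapped for each of the 9. The most abundant was Sema6b, which encodes a membrane-bound ligand of A-type plexins, at 46.8 and 33.9 CPM in control mice, against 43.5 and 52.0 CPM in mice lacking Msi2 (adjusted p = 0.635 by edgeR, at a log2 fold change of 0.25, SE 0.198). Sema4c, a ligand of Plxnb2, stood at 10.2 and 5.01 CPM in control mice, against 18.2 and 5.56 CPM in mice lacking Msi2 (adjusted p = 0.715 by edgeR, at a log2 fold change of 0.65, SE 0.684). It was 3.27-fold higher in Msi2 -/- replicate 1 than in replicate 2, and its log2 fold change was -0.44 without replicate 1.

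Of the remaining plexins, Plxna3 stood at 5.70 and 5.02 CPM in control mice, against 5.67 and 2.26 CPM in mice lacking Msi2 (adjusted p = 0.737 by edgeR). Plxnb3 stood at 4.59, 2.41, 5.23 and 4.33 CPM in the same order (adjusted p = 0.66 by edgeR), and Plxna2 at 2.28, 0.439, 1.51 and 0.611 CPM (adjusted p = 0.895 by edgeR). Plxnb1, the main receptor of Sema4d elsewhere, stood at 0.0260 to 0.0572 CPM and was not tested. Of the secreted semaphorins Sema3g passed the filter, at 0.398 to 0.678 CPM, while Sema3a, Sema3c, Sema3d and Sema3e had at most 2 counts in any library, which allows up to 0.0343 to 0.0412 CPM where the count was 0. Sema3b and Sema3f lay between 0 and 0.123 CPM, so the neuropilins were measured in cells with few transcripts of their secreted semaphorin ligands.

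This and the other partner lists below were drawn up with earlier results of these data known, so their p-values and calls are a description. The growth factors that bind neuropilins all had a log2 fold change below 0, where 50.3% of all tested genes did so. Msi2 -/- lay below the controls without overlap for 3 of the 5, beside 24.6% of tested genes, and the groups overlapped for 2. Of 5 tested genes, edgeR called 0 (by unadjusted p, 0 higher and 1 lower) and DESeq2 called 1 lower, Vegfc, which encodes the lymphatic growth factor that binds Nrp2. Counts of Vegfc were 25 and 46 in control mice, against 0 and 1 in mice lacking Msi2, or 71 against 1 in sum. The scaled ratio of control to Msi2 -/- was 75.8 with an exact 95% counting interval of 13.2 to 3035 (DESeq2 adjusted p = 0.0247, edgeR adjusted p = 0.289). Figf, another lymphatic growth factor gene, stood at 0.358 and 0.178 CPM in control mice, against 0.126 and 0.0520 CPM in mice lacking Msi2 (adjusted p = 0.441 by edgeR). For Vegfb the log2 fold change was -0.19 (SE 0.0973) and for Pgf, a placental growth factor gene, -0.34 (SE 0.33). The list's median was -0.34.

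Of 11 tested receptor partners, edgeR called 0, although 2 were higher and 1 lower by its unadjusted p. DESeq2 called 1 higher and 1 lower, and the list's median was -0.26. Itga1, which encodes a chain of the collagen receptor that also binds Sema7a, stood at 9.02 and 16.1 CPM in control mice, against 0.892 and 4.32 CPM in mice lacking Msi2 (adjusted p = 0.389 by edgeR and 0.0445 by DESeq2, at a log2 fold change of -2.27, SE 0.84). Tyrobp, the adaptor that joins Plxna1 to Trem2 in dendritic cells, stood at 245 and 226 CPM in control mice, against 287 and 348 CPM in mice lacking Msi2 (adjusted p = 0.335 by edgeR and 0.0338 by DESeq2, at a log2 fold change of 0.43, SE 0.119). L1cam, an adhesion molecule gene that works with Nrp1 in axon guidance, had a log2 fold change of 0.86 (SE 0.28, edgeR adjusted p = 0.362). Itgb1, the integrin partner chain of Itga1, had one of -0.20 (SE 0.0915, edgeR adjusted p = 0.443).

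Downstream of plexins, the list of small GTPases and their regulators had 18 tested genes, of which edgeR and DESeq2 called 0 (by edgeR's unadjusted p, 3 higher and 0 lower). Their median was 0.09, with 13 above 0 and 5 below. Sh3bp1, a Rac GTPase-activating protein gene that acts with Plxnd1, stood at 119 and 105 CPM in control mice, against 140 and 134 CPM in mice lacking Msi2 (adjusted p = 0.353 by edgeR, at a log2 fold change of 0.29, SE 0.0895). Rap1a, the GTPase on which the plexin GAP domain acts, had a log2 fold change of 0.27 (SE 0.0737, edgeR adjusted p = 0.335). Rhoa had one of 0.23 (SE 0.0807) and Arhgef12, an exchange factor gene that binds B-type plexins, one of 0.60 (SE 0.247).

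Cytoskeletal effectors had 15 tested genes with 13 above 0 and 2 below, where 49.7% of all tested genes lay above 0, and a median of 0.13. EdgeR called 0 (by unadjusted p, 3 higher and 0 lower) and DESeq2 called 2 higher, beside 3.10% of all genes it tested. Dpysl2, which encodes the collapsin response mediator that carries semaphorin signals to microtubules, stood at 9.67 and 9.96 CPM in control mice, against 14.2 and 16.6 CPM in mice lacking Msi2 (adjusted p = 0.32 by edgeR and 0.0115 by DESeq2, at a log2 fold change of 0.65, SE 0.159). Iqgap1, a scaffold gene for Rac and actin, stood at 369 and 389 CPM in control mice, against 450 and 472 CPM in mice lacking Msi2 (adjusted p = 0.327 by edgeR and 0.0149 by DESeq2, at a log2 fold change of 0.28, SE 0.0705). Limk1, a kinase gene for cofilin, and Cfl1, for cofilin itself, stood 0.64 (SE 0.202) and 0.21 (SE 0.0881) above the controls on the log2 scale.

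Of the proteases that cut semaphorins and plexins, 4 were tested and edgeR called 0 (by unadjusted p, 1 higher and 1 lower). DESeq2 called Pcsk7 higher and Adam17 lower. Pcsk7, a proprotein convertase gene, stood at 51.1 and 50.7 CPM in control mice, against 64.0 and 65.9 CPM in mice lacking Msi2 (adjusted p = 0.293 by edgeR and 0.00397 by DESeq2, at a log2 fold change of 0.35, SE 0.0698). Adam17, a sheddase gene, stood at 123 and 140 CPM in control mice, against 94.9 and 98.6 CPM in mice lacking Msi2 (adjusted p = 0.297 by edgeR and 0.00733 by DESeq2, at a log2 fold change of -0.44, SE 0.092). Furin, a convertase gene, gave a log2 fold change of 0.05 (SE 0.251) and Adam10, a sheddase gene, one of 0.14 (SE 0.0692). Over all 62 partner genes 53 were tested, and DESeq2 called 4 higher and 3 lower, beside 3.10% and 2.71% of all genes. By edgeR 0 passed an adjusted p of 0.05, while its unadjusted p was under 0.05 for 9 higher genes and 3 lower ones, beside 6.69% and 6.17% (12.9% in all). With a library left out DESeq2 called between 1 and 4. Its calls of Dpysl2, Iqgap1 and Pcsk7 were absent whichever library was left out. That of Tyrobp remained without Msi2 -/- replicate 1 alone, that of Vegfc without Msi2 -/- replicate 2 alone, that of Adam17 without control 1 alone, and that of Itga1 without either Msi2 -/- mouse.

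**Figure D5:**
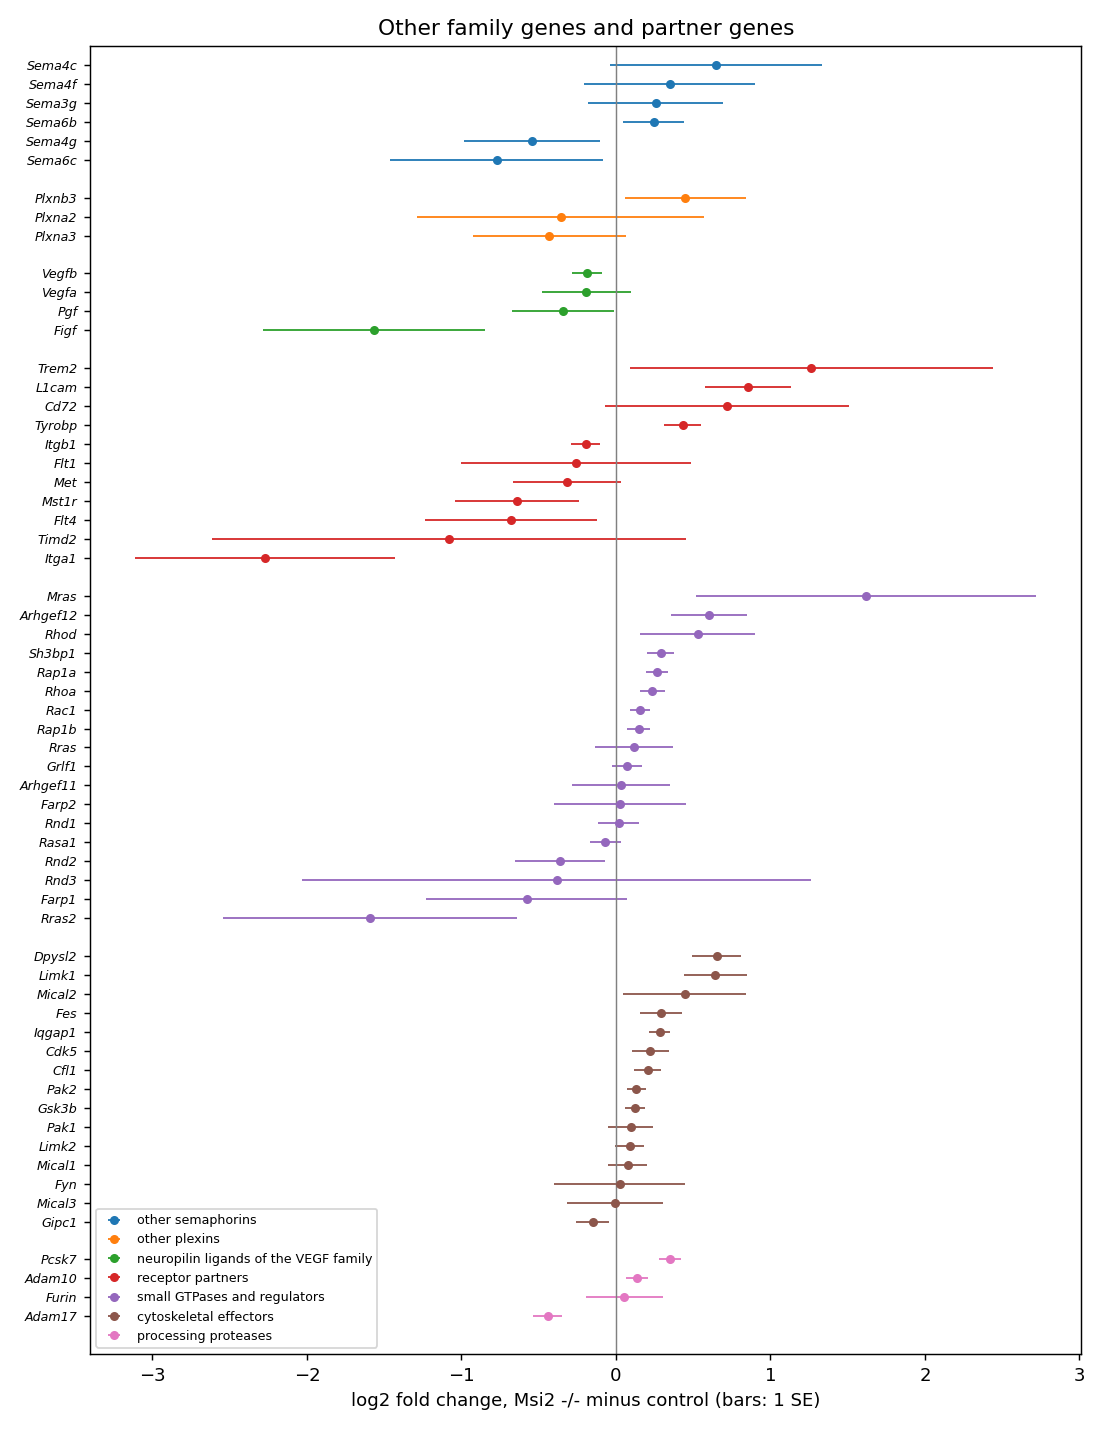
Log2 fold change of Msi2 -/- against control for the tested genes of the family outside the 10 and of the 5 partner lists, with bars of 1 SE; Vegfc is left out because its fold rests on 0 and 1 counts. The bar of Sema4c (0.65, SE 0.684) crosses 0, while those of Pcsk7 (0.35, SE 0.0698) and Adam17 (-0.44, SE 0.092) are short.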

How the data were processed

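RNA of 4 libraries, 1 per mouse, was analysed. The authors deposited raw counts of reads for each gene symbol. The submitters' processing notes name Trimmomatic, STAR, HTSeq, DESeq and mm9. No source used here gives versions, annotation or strand setting. The 5 rows that name no gene (19.1% to 20.1% of counts) were left out. Chi-square per gene between replicates was 61.7 in the controls and 149 in the Msi2 -/- mice, above sampling noise, and all 4 libraries were kept apart.

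Under R 4.3.3 genes were filtered with filterByExpr (minimum count 10, total 15), scaled by TMM and tested in edgeR 4.0.16 (quasi-likelihood, group only, two-sided, Benjamini-Hochberg over 13215 genes). SE were taken from the F statistic. DESeq2 1.42.0 and limma-voom (limma 3.58.1) were alternatives. The library names begin with a number that is shared within each group and whose meaning is not stated; if it marks a batch, batch and genotype cannot be told apart. Whether the libraries of a group came from separate experiments is not stated, and p-values measure the spread between these mice. On simulated counts of this comparison (13215 genes, 200 changed) edgeR recovered 37.3%, 68.7% and 78.8% of 2-, 4- and 8-fold changes with 8 false calls. DESeq2 recovered 56.7%, 76.1% and 83.3% with 74 false calls. In the real counts Msi2 was 269-fold lower in the Msi2 -/- mice and did not pass by edgeR (adjusted p = 0.122). The simulated shares therefore say little about calls on the real counts.

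Exon length is the union of GENCODE M21 exons on GRCm38. Members and lists were chosen with earlier results of these data known, so the p-values and calls of list genes are a description too. Named are the 10 members, tested family genes, and in each partner list the 4 genes of smallest edgeR p. A few others (Flt1, markers) were added for their values. Of the list symbols 1 had no row, and 2 matched through RefSeq synonyms. Values of some list genes are not reported here. Alternatives were RLE and upper-quartile scaling, other filters, the likelihood ratio test, a replicate block and leaving out each library.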

Additional observations from a re-analysis of the deposited data

How the results depend on the processing

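The single edgeR call over all genes stayed at 1 under RLE and upper-quartile scaling, a filter at 1 CPM in 2 libraries and without genes of X and Y. It was 6 with no filter, 776 with DESeq2, 0 with limma-voom, 312 with the likelihood ratio test and 0 with the replicate block. Leaving out 1 library gave 0 to 106 by edgeR (12 without Msi2 -/- replicate 1, 106 without replicate 2, 0 without either control). In fits chosen after seeing the data DESeq2 called 390 and 197 without control 1 and 2, and 627 and 899 without Msi2 -/- replicates 1 and 2. Among partner genes the count of 0 became 7 with DESeq2, 1 with the likelihood ratio test and 1, 1, 3 and 4 by DESeq2 in the same order of libraries left out, and edgeR kept 0 in every leave-one-out fit. The other semaphorins and plexins had 0 calls under every alternative run. The median of the 10 genes was lowest at -0.67 when Msi2 -/- replicate 2 was left out and highest at 0.33 when control 1 was, and was -0.12 with limma-voom and -0.08 with the replicate block, against 0.21. For Nrp2 the log2 fold change was -1.09 with limma-voom and -0.88 with the replicate block, against 0.54, and with the block Plxnb2 (-1.77) exceeded Plxna1 (-1.72). Deviations of same-numbered libraries had a correlation of 0.04, and those of crossed libraries -0.04. With 2 libraries per group these are the same contrast with opposite signs, so they cannot decide whether the numbers pair the mice. The block changed no call among partner or family genes, for which edgeR called 0 without it too. With 2 mice per group 1 animal can set a mean, and where a library is left out the lone mouse is assumed to vary like the other group. The cause of these shifts was not tested.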
